A study of Drosophila melanogaster with 2 samples.

Results

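Binding of the CG32532 protein was examined at the 73 protein-coding genes for mitochondrial ribosomal proteins, chosen by their symbols (mRpL or mRpS followed by a number) from 13968 protein-coding genes on the chromosome arms. They comprise 47 genes for the large subunit and 26 for the small subunit. The data come from whole Drosophila melanogaster embryos aged 8 to 24 h that carried a transgene for CG32532 joined to enhanced green fluorescent protein (eGFP). An antibody against GFP was used for chromatin immunoprecipitation with sequencing (ChIP-seq) in 2 biological replicates of 1 group. There is no second condition, and a control named in the labels was not used here. Whole embryos mix all cell types, so a peak shows binding somewhere in the embryo and not in which cells, and binding of a tagged transgene product was read in place of the untagged protein.

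The mitochondrial ribosome translates the few messages of the mitochondrial genome, which encode core subunits of the oxidative phosphorylation complexes. All of its proteins in flies are encoded in the nucleus, made in the cytoplasm and imported. Some descend from bacterial ribosomal proteins and others were added in the eukaryotic lineage. CG32532 is a predicted homeodomain protein, and homeodomains typically recognise short sequences with a TAAT core.

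A peak was counted where it belonged to the conservative set of 5325 peaks that rests on both replicates, called the replicated set, and a peak's summit is its highest point. The signal of a peak in each replicate is the authors' deposited value, whose scale is not stated. Each value was therefore scaled by its replicate's median across the replicated peaks (67.7 in replicate 1 and 116 in replicate 2), so that 1 is the median peak. No read counts accompany the peaks, so sequencing depth is unknown.

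The sequences at the summits of 6 of the 7 strongest members are shown as examples of the bound DNA. That of mRpL41, the strongest, is not shown. Each runs 5′ to 3′ on the strand of the member and is centred on the summit, from the reference sequence of dm6, with every TAAT or its complement ATTA in capitals. Windows of 101 bases that touched an annotated exon were shortened to 29 bases, as for mRpL23.
mRpS23, chr2L:13835409-13835509, minus strand: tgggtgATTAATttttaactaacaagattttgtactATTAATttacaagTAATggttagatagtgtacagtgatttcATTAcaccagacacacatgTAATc
mRpS10, chr3R:15229489-15229589, plus strand: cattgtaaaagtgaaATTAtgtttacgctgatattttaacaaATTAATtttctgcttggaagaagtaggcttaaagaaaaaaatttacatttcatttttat
mRpL23, chr3L:2373583-2373611, minus strand: ttttatagttacagcgTAATaacttaaat
mRpS2, chr2L:4850513-4850613, minus strand: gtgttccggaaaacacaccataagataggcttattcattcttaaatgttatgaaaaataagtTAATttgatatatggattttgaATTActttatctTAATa
mRpL20, chr3L:13018110-13018210, minus strand: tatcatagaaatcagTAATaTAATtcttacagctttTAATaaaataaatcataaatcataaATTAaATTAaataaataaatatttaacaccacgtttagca
mRpL24, chr2L:4945441-4945541, minus strand: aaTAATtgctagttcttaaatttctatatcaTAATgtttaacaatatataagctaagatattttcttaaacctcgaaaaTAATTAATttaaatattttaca
The windows of mRpS23, mRpL20 and mRpL24 hold 7, 5 and 5 matches to the TAAT core, overlaps included, while those of mRpS10 and mRpS2 hold 3 each. All of these are rich in A and T, with a G+C content of 16.8% at mRpL20 and mRpL24 and of 28.7% at mRpS23.

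How many of the genes were bound depended on how a peak was given to a gene. With each summit given to the protein-coding gene whose transcription start site (TSS) is nearest, 19 of the 73 members (26%, exact 95% binomial interval 16.5% to 37.6%) had a replicated peak. Of all protein-coding genes 25.2% did, so by nearest gene the members did not stand apart from the background. In the sets called on 1 replicate alone, the nearest-gene rule gave 16 members in replicate 1, beside 21% of all genes, and 19 in replicate 2, beside 29.3% of all genes.

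When a summit within 500 bp of the member's own TSS was required instead, whichever gene was nearest, 32 of 73 members (43.8%, interval 32.2% to 55.9%) were bound. The background for the same rule was 24.3% of all genes. The same reading held in each replicate. In the set of replicate 1, 29 members (39.7%) had such a summit beside 20.1% of all genes, and in that of replicate 2, 37 members (50.7%) beside 27.4%. The mean over both sets was 45.2% ± 7.75 for the members and 23.8% ± 5.17 for all genes (SD, n = 2). Both sets held such a summit for 28 members, beside 18% of all genes. The intervals count genes and not embryos, and no test was made, because the members are not replicates of a condition and the list was chosen with results of these data known.

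The counts differed at genes that share a promoter region with a neighbour. Of the 32 members with a summit at the TSS, 14 had it nearer to another gene, and in all 14 that gene was the member's head-to-head partner, a protein-coding gene that starts on the opposite strand within 500 bp upstream. Such a partner was found for 53 of the 73 members (72.6%), against 27.3% of all protein-coding genes. Among head-to-head members 28 of 53 (52.8%, interval 38.6% to 66.7%) had a summit within 500 bp, and among all head-to-head genes 1729 of 3815 (45.3%) did. Of the 20 members without a partner 4 did (20%), namely mRpL41, mRpL19, mRpS29 and mRpL9, and of all genes without one 16.4% did. Compared within the same layout, the members lay closer to the background than they did over all genes, and the value for all head-to-head genes lies within the members' interval.

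**Figure D1:**
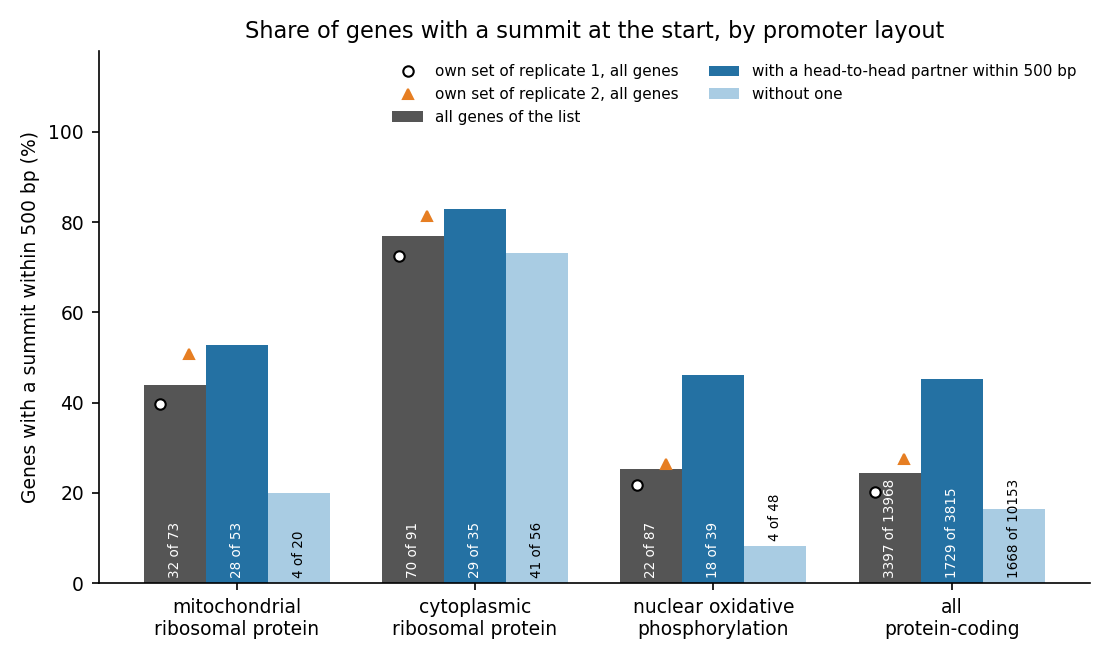
Bars give the percentage of genes in each list with a replicated summit within 500 bp of a TSS, for all genes of the list, for those with a head-to-head partner and for those without, with the gene counts written on the bars. Points over the first bar of each list give the sets of each replicate alone. The mitochondrial ribosomal protein genes stand at 43.8% over all genes and at 52.8% among head-to-head genes, where all protein-coding genes stand at 45.3%.

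Genes of the cytoplasmic ribosome served for comparison. Of 91 genes for cytoplasmic ribosomal proteins 70 (76.9%) had a summit within 500 bp, and 35 of the 91 (38.5%) have a head-to-head partner. The share bound was 73.2% for the cytoplasmic genes without a partner, against 20% for the mitochondrial ones. With a partner it was 82.9%, against 52.8%. Nuclear genes for subunits of oxidative phosphorylation, which work with the products of the mitochondrial ribosome, had a summit at 22 of 87 (25.3%), near the background. A partner was found for 44.8% of them. Of those with a partner 46.2% had a summit, and of those without 8.33%, beside 45.3% and 16.4% of all genes.

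The distance between the starts was also examined. Over the 53 head-to-head members it ranged from 20 to 499 bp with a median of 264 bp, beside 244 bp for all head-to-head genes. Of the 25 members with a gap of up to 250 bp, 10 (40%) had a summit, beside 41.1% of all genes with such a gap. Of the 28 members with a gap of 251 to 500 bp, 18 (64.3%) had one, beside 49.9%. In the set of replicate 1 the counts were 10 and 17 of these members, beside 702 of 1980 and 786 of 1835 of all genes. In that of replicate 2 they were 12 and 19, beside 847 of 1980 and 935 of 1835.

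By mean signal the strongest peak of each bound member ranked between 4 and 4901 among the 5325 replicated peaks, so the members spanned nearly the whole range. At 4 members the peak reached 10 or more times the median, a level chosen after the values were seen. Such a peak lay at the TSS of 38 of all protein-coding genes (0.272%), and 40 of the 5325 peaks (0.751%) reached it. The strongest was at mRpL41 (FBgn0034001), a large-subunit gene with no head-to-head partner, in the peak at chr2R:15217566-15217986. Its signal was 1681 in replicate 1 and 2350 in replicate 2, or 22.5 ± 3.24 times the median (SD, n = 2), rank 4 of all replicated peaks by this measure. The summit lay 131 bp upstream of the TSS between genes.

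mRpS23 (FBgn0260407), a small-subunit gene, followed with 1003 and 2088, or 16.4 ± 2.25 times the median. Its summit lay 387 bp upstream of its own TSS and 105 bp upstream of that of CenG1A, which encodes a GTPase-activating protein of the centaurin family, so the nearest-gene rule did not count it for mRpS23. At mRpS10 (FBgn0038307), the counterpart of bacterial S10, the signals of 1073 and 1864 gave 16.0 ± 0.15 times the median. The summit lay almost midway between its TSS, 126 bp away, and that of Art3, an arginine methyltransferase gene, 131 bp away. Of the 4, this was the peak with the smallest difference between replicates.

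mRpL23 (FBgn0035335), whose bacterial counterpart lies at the exit of the ribosomal tunnel, had signals of 1028 and 1542, or 14.2 ± 1.34 times the median. It differed in position: the summit lay 81 bp downstream of its TSS, in an untranslated exon of the gene, where the starts of mRpL23 and its partner CG9004 are only 24 bp apart. In both replicates these 4 members lay above all other members.

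A second group of 3 lay between 4.70 and 6.03 times the median, and each summit was nearer to the partner. mRpS2, the counterpart of bacterial S2, had signals of 414 and 690 with its summit 144 bp upstream, beside Mon1, a gene of endosome maturation. mRpL20, the counterpart of a bacterial protein that acts early in large-subunit assembly, had 304 and 606 beside Icmt, a carboxyl methyltransferase gene. mRpL24, the counterpart of a bacterial assembly initiator, had 300.5 and 576 beside betaggt-I, which encodes a subunit of a geranylgeranyl transferase. The replicates gave nearly equal multiples at all 3, with SDs of 0.118, 0.523 and 0.37.

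No bound member lay between 2.03 and 4.70 times the median. The other 25 lay at or below 2.03. mRpL37 had 164 and 189, and mRpL34 had 145 and 209 beside Dg, which encodes dystroglycan. mRpS6 had 121 and 214, and mRpL32 had 122 and 204 beside qless, a gene of coenzyme Q synthesis. mRpL39 had 88.6 and 185 beside the proteasome gene Prosbeta2. Of the 32 members with a summit, 18 had a mean above the median peak and 14 were above it in both replicates.

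**Figure D2:**
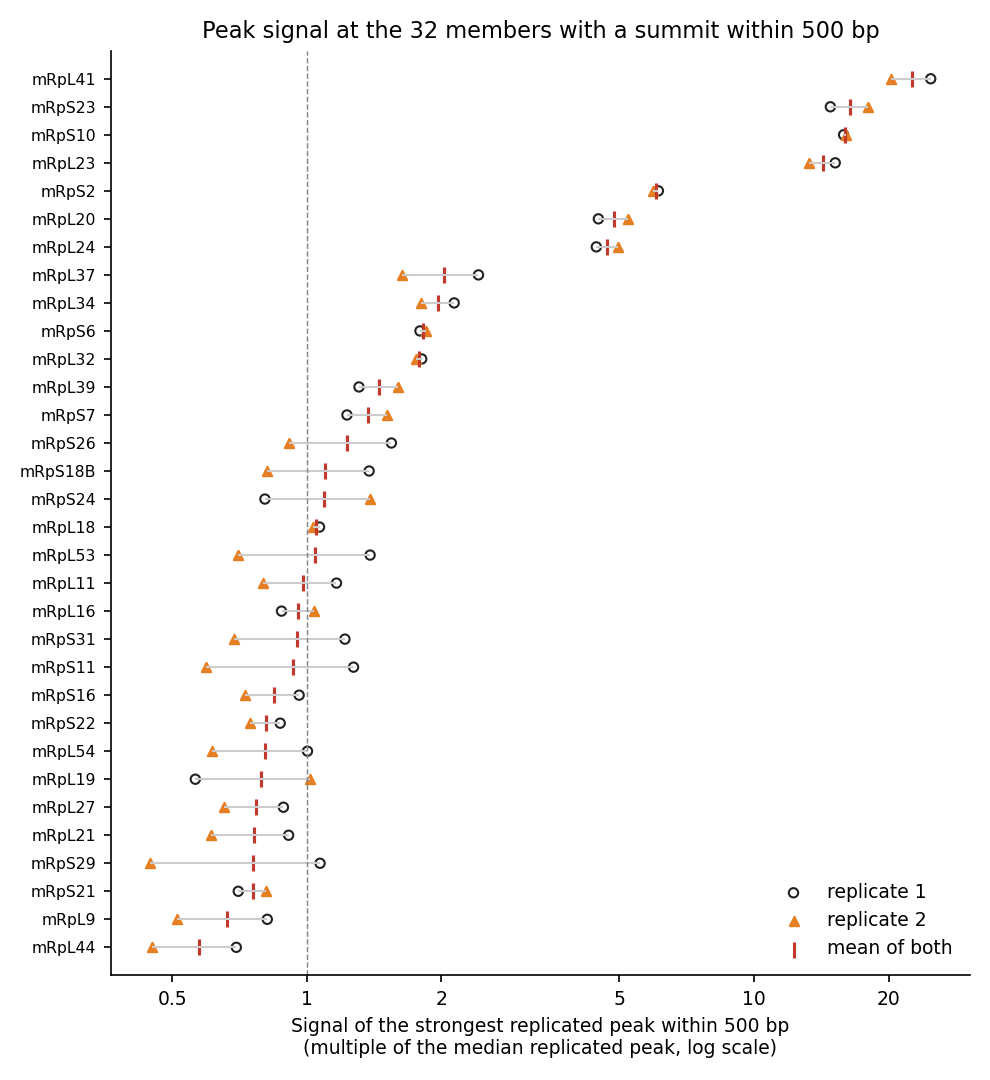
Signal of the strongest replicated peak within 500 bp of the TSS at each of the 32 bound members, as a multiple of the median replicated peak on a log scale, with circles for replicate 1, triangles for replicate 2 and red marks for the mean. The 4 members from mRpL41 to mRpL23 lie above 10, 3 lie between 4.70 and 6.03, and the other members lie at 2.03 or below.

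At the lower end, mRpS29, mRpS21, mRpS22, mRpL9 and mRpL13 had the lowest replicate means among members with a peak by nearest TSS, taking the strongest such peak of each, with 0.616 to 0.759 times the median. mRpS29, which encodes a GTP-binding protein of the small subunit, had signals of 72.5 and 51.8. mRpL9 had 55.3 and 59.6, and mRpS21 had 47.6 and 94.2. The peak of mRpS22 had 53.9 and 65.5, and a second, stronger summit 314 bp upstream of the same gene, 78 bp from the TSS of CG5003, had 59.0 and 86.7. mRpL44, with 47.1 and 52.3, was the weakest member with a summit within 500 bp, at 0.573 times the median. Its summit lay 25 bp from the TSS of the chromatin remodelling gene Snr1.

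mRpL13 was the one member whose only peak by nearest TSS lay far away. The summit was 4941 bp upstream of mRpL13, in a coding exon of the homeobox gene tup, and equally near to CG10602. Its signals were 56.2 and 46.5. The other ties were mRpL16 with trr, a histone methyltransferase gene, and mRpL53 with CG33155.

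mRpS31 was nearest to both of a pair of replicated peaks. Both overlap the same peaks of the replicates, which had 82.4 and 79.9, so the replicate values cannot be told apart between them. In the pooled call the peak 126 bp upstream had a signal of 136 and the one 75 bp downstream had 11.3.

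Replicates differed most, relative to their medians, at members with signals around the median peak. Over the 32 members with a summit within 500 bp, the log2 ratio of replicate 2 to replicate 1 was lowest at mRpS29 (-1.26), mRpS11 (-1.10) and mRpL53 (-0.98). It was highest at mRpL19 (0.85), mRpS24 (0.78) and mRpS7 (0.30). The distant peak of mRpL13 had -1.05. Over the 20 peaks nearest to members the SD of this ratio was 0.56, beside 0.55 over all replicated peaks, so the replicates were about as close at members as elsewhere. Both replicates' own sets held 15 of the 20 peaks (75%), beside 63.0% of all replicated peaks.

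**Figure D3:**
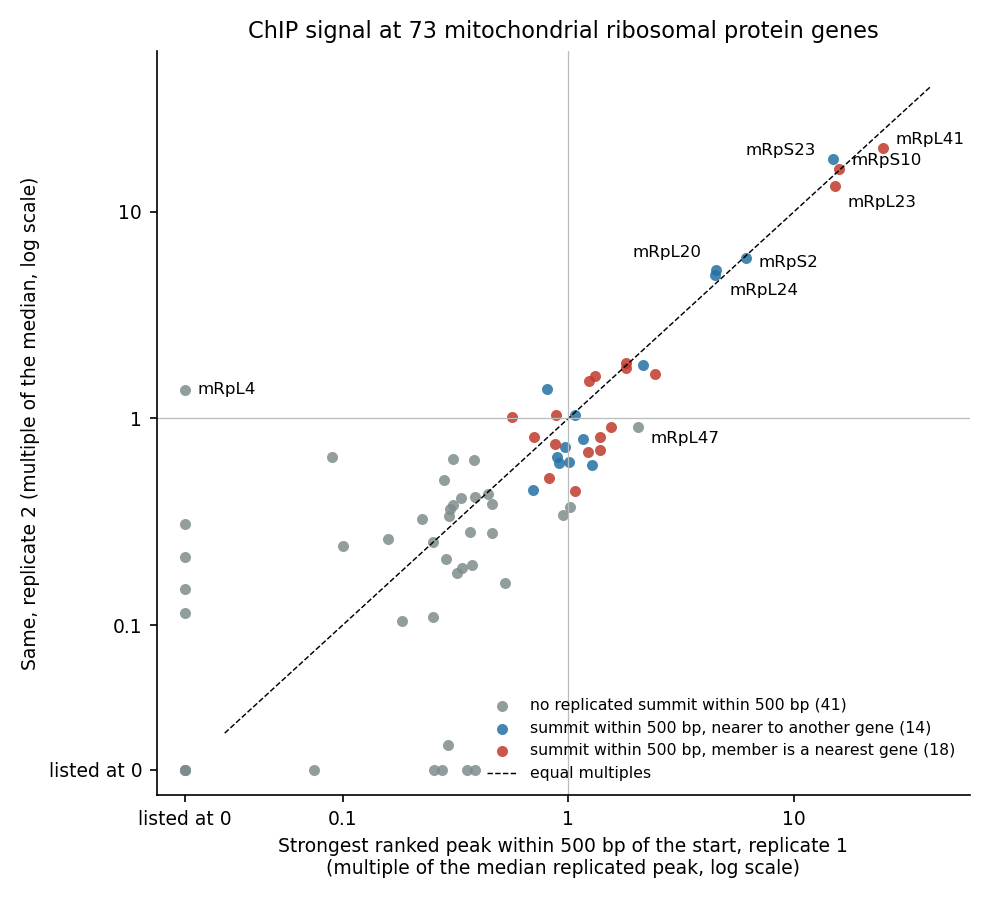
Strongest ranked peak within 500 bp of the TSS for all 73 members, replicate 1 on the x axis and replicate 2 on the y axis, as multiples of the median replicated peak on log scales, with members lacking a ranked peak placed at "listed at 0". Red points are members with a summit within 500 bp that are also a nearest gene, and blue points have such a summit nearer to another gene. Grey points have no replicated summit within 500 bp, and include mRpL13, whose only peak is distant. The grey points lie below 1 in both replicates except mRpL47, mRpL17 and mRpL4, which are above 1 in one replicate.

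Nearly all peaks nearest to members lay close to the TSS. Of the 20 peaks nearest to a member 19 (95%) had their summit within 500 bp of its TSS, beside 53.4% of all replicated peaks for any protein-coding gene. For the cytoplasmic ribosomal protein genes the share was 93.2%, and for the oxidative phosphorylation genes it was 72.2%. The 19 summits ran from 206 bp upstream, at mRpS26, to 81 bp downstream, at mRpL23. The median summit of these 19 lay 126 bp upstream, and that of all 2845 replicated peaks within 500 bp of a TSS lay 86 bp upstream. Between 150 and 100 bp upstream lay 9 of the 19 (47.4%), against 518 of the 2845 (18.2%). This interval holds the members' own median, and its share at head-to-head genes alone is not given here. These 9 were the peaks of mRpL41, mRpS10, mRpL37, mRpS6, mRpL32, mRpL39, mRpS7, mRpS21 and the upstream peak of mRpS31.

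At head-to-head members the summits mostly lay between the starts. This was so for 24 of 28, and the median distance was 136.5 bp upstream of the member and 131 bp upstream of the partner. The summit was nearer to the member in 12 cases, nearer to the partner in 15 and equally far in 1. The exceptions were mRpL18, mRpL23, mRpL27 and mRpL11, whose starts lie 20, 24, 91 and 126 bp from those of their partners. From a peak list it cannot be told which gene of a pair, or whether both, a summit belongs to. How often summits lie between the starts over all head-to-head genes is not given here. Among all 2845 replicated peaks within 500 bp of a TSS, 78.7% had their summit upstream.

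**Figure D4:**
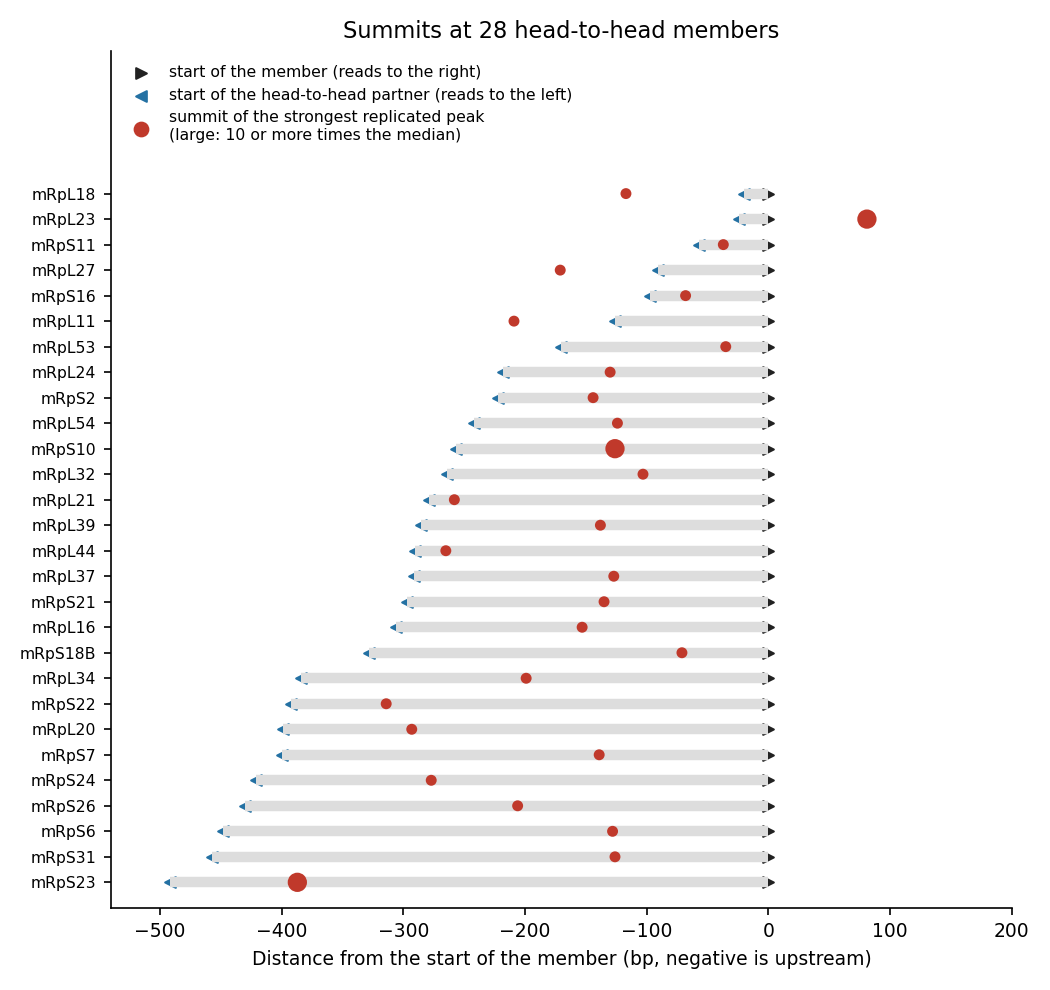
Position of the strongest summit (red) relative to the TSS of the member (black, at 0) and of its head-to-head partner (blue), in bp, for the 28 bound head-to-head members sorted by the gap between the starts. Large points mark mRpS23, mRpS10 and mRpL23, at 10 or more times the median. In 24 of 28 pairs the summit lies within the grey bar between the starts. The same count over all head-to-head genes is not given.

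Base composition at the summits was low in G+C. In the 50 bp around the summit the peaks nearest to members had a median of 26%, from 12% at mRpS18B to 54% at mRpL53, beside 36% over all replicated peaks and 38% over those within 500 bp of a TSS. Upstream of their TSS the members are low in G+C whether bound or not. Between 150 and 100 bp upstream the median was 27.5% both in the 32 members with a summit and in the 41 without, beside 31.4% and 35.3% in all protein-coding genes with and without a summit. Head-to-head genes, the layout of most members, had 27.5% with a summit and 33.3% without, so the median of the bound members was that of bound genes of the same layout. The quartiles of the bound members ran from 21.6% to 31.4% and those of the unbound members from 23.5% to 33.3%, so these groups overlapped widely.

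**Figure D5:**
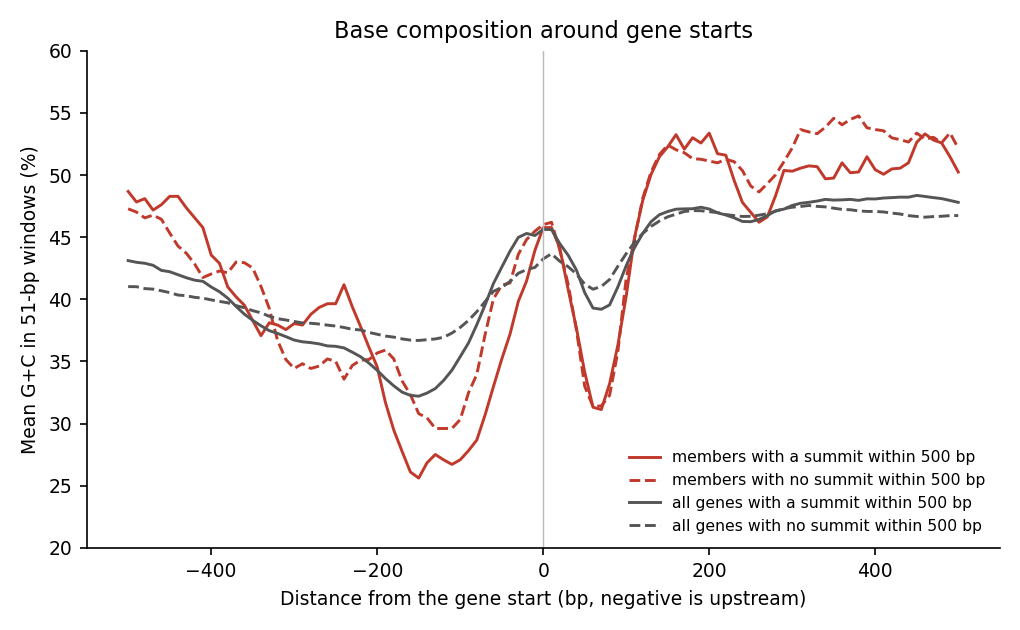
Mean G+C content in 51-bp windows by distance from the gene start, for members (red) and all protein-coding genes (grey) with a summit within 500 bp (solid) or without (dashed). At 150 bp upstream the members average 25.6% with a summit and 30.8% without, and all genes 32.2% and 36.7%.

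A TAAT core was counted in 101-bp windows around summits, a search added after the data were seen. It was present in 90.6% of the 32 strongest peaks within 500 bp of a member, with a median of 3 matches, beside 68.6% of all replicated peaks and 66.1% of those within 500 bp of a TSS, with a median of 1. The median G+C content of these windows was 26.7% at the members and 37.6% at all TSS peaks, and a core of these letters is met more often where A and T are frequent. The part of base composition in this count was not tested. Further examples from moderate peaks and a weak one show the range.
mRpS6, chr3L:4364372-4364472, plus strand: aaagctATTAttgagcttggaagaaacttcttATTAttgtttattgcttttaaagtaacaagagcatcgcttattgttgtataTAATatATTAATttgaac
mRpS7, chr2L:10386473-10386573, plus strand: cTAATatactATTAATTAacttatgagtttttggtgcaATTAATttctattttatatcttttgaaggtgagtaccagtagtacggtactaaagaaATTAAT
mRpL44, chr3R:5470887-5470915, minus strand: agcgggtgccaccaacgcaatttagtact
mRpS7 has 8 matches at a mean signal of 1.37 times the median, mRpS23 has 7 at 16.4 times and mRpS10 has 3 at 16.0 times. The short window of mRpL44 holds none, and its 29 bases cannot be compared with windows of 101. Other weak peaks with 101-base windows hold 7 matches at the stronger peak of mRpS22 (0.81 times), 3 at mRpL19 (0.789) and 5 at mRpS21 (0.757). Of those with 29 bases, mRpL21 (0.76) holds none and mRpL9 (0.665) holds 2.

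Other motifs were searched on both strands in the 200 bp around the summits. TAATTA, a palindromic homeodomain core that contains the TAAT letters, was in 4 of 20 peaks nearest to members (20%), beside 15.2% of all replicated peaks. Over the strongest peak within 500 bp of each of the 32 members it was in 8 (25%), beside 15.4% of TSS peaks. Its holders included mRpS2 and mRpL24 but not mRpL41, mRpS23, mRpS10 or mRpL23. The site of DREF, a factor known to act at many fly genes of growth and mitochondrial function, reads TATCGATA. It was in 4 of the 20 (20%), beside 4.51% of all replicated peaks and 8.12% of those near a TSS. Counted over the strongest peak within 500 bp of each of the 32 members it was in 4 (12.5%). The holders were mRpL32, mRpS18B, mRpL19 and mRpS29. The sites of the first 3 are shown with the 8 letters in capitals and 10 bases on each side.
mRpL32, chr3R:31252835-31252862, plus strand: tctataaacaTATCGATAgcacagctgt
mRpS18B, chr2L:20097240-20097267, minus strand: cccctgaatgTATCGATAgtcatgtatc
mRpL19, chr3R:8674074-8674101, plus strand: tataaagggtTATCGATAactctgctgt
The first letter of the site lay 76, 67 and 52 bp downstream of the summit in these genes, read along the gene, and 10 bp downstream in mRpS29, so the site was near the peak centre only in mRpS29. None of the 4 holders was among the members above 2 times the median.

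Searched in the promoters themselves (250 bp before to 50 bp after the start of every gene), the DREF site was in 15 of 73 members (20.5%), beside 9.36% of all protein-coding genes. It was in 8 of the 32 members with a summit (25%) and in 7 of the 41 without (17.1%), beside 14.9% and 7.58% of all genes with and without one. Among head-to-head genes the shares were 18.7% and 16.4%, closer to those of the members. In mRpL20 the site began 10 bp upstream of the TSS, where the summit lay 293 bp upstream, and mRpS23 had sites 209 and 9 bp upstream with its summit at 387 bp. CAGCTG, a form of the E-box bound by many basic helix-loop-helix factors, was in 40 of the 73 member promoters (54.8%), beside 17.6% of all. Among head-to-head genes it was in 27.4% with a summit and 23.2% without. Of the members it was in 15 of the 32 with a summit (46.9%) and in 25 of the 41 without (61.0%). For GGTCACACT, known as Motif 1, the shares were 8 of 73 (11.0%) and 6.04%, and for TATAAA, the TATA box, 34 of 73 (46.6%) and 45.8%. TAATTA was in 15 of 73 member promoters (20.5%), beside 20.4% of all, so the members were at the background. It was in 25% of the members with a summit and 17.1% of those without, beside 26.9% and 20.5% of head-to-head genes. A match is a description of the letters and not a shown binding site.

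The 41 members with no replicated summit within 500 bp were mRpL47, mRpL17, mRpL4, mRpS17, mRpL43, mRpS18A, mRpS14, mRpL33, mRpL2, mRpL10, mRpL22, mRpL28, mRpL42, mRpL50, mRpL13, mRpS30, mRpL52, mRpL55, mRpS9, mRpS25, mRpL1, mRpL35, mRpL12, mRpL48, mRpS28, mRpL36, mRpL45, mRpS35, mRpL14, mRpS34, mRpL51, mRpL49, mRpL15, mRpS33, mRpL3, mRpL38, mRpL30, mRpS18C, mRpL40, mRpL46 and mRpS5. Their signal in the full ranked lists of each replicate, which also hold weak peaks below the threshold, was low. Its median was 0.293 times the median peak in replicate 1 and 0.251 times in replicate 2.

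The 5 strongest of the unbound members differed from one another. mRpL47, related to bacterial L29, had ranked peaks of 137 in replicate 1 and 106 in replicate 2. The pooled ranked list holds a peak 72 bp from its TSS that passes the score threshold and is absent from the replicated set. mRpL17 had 69.0 and 43.4 and passed in the set of replicate 1, and mRpS17 had 64.1 and 39.6 and passed in neither. mRpL4, whose bacterial counterpart lines the ribosomal tunnel, was listed at 0 in replicate 1 and at 160 in replicate 2. mRpL43 had 25.9 and 73.1. In the set of replicate 2 alone a summit lay at mRpL4, mRpL43, mRpS18A, mRpL10 and mRpL28, and no unbound member had one in both sets.

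mRpL40, mRpS5 and mRpL46 were listed at 0 in both replicates, which says that the lists hold no peak there. This was the median distance used to place the windows below: 126 bp upstream, over the 19 summits within 500 bp of their nearest member. The first 2 windows have 101 bases, and that of mRpL46 was shortened to 29 bases.
mRpL40, chr3R:11407742-11407842, plus strand: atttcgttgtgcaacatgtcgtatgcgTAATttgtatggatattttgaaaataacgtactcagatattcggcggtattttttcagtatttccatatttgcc
mRpS5, chr3L:24537060-24537160, plus strand: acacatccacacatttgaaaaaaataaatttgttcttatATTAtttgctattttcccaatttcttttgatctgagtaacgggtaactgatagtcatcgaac
mRpL46, chr3L:1777299-1777327, plus strand: gtgtgattgatatacgactccagaccgga
mRpL40 and mRpS5 have a G+C content of 33.7% and 29.7% and 1 TAAT core each, and mRpL46 has 48.3% and none. The window of mRpL46 overlaps an exon of its head-to-head partner CG2021, which starts 28 bp away, so it is not comparable with the other 2.

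Taken over all 73 genes and with no threshold, the strongest ranked peak at the TSS had a median of 0.458 times the median peak in replicate 1 and 0.451 times in replicate 2. Over all protein-coding genes the medians were 0.324 and 0.227. The median member lay at the 65.2th percentile of all genes in replicate 1 and at the 69.6th in replicate 2. The median over the peaks nearest to members was 1.07 times the median peak, beside 0.999 over all replicated peaks, and 0.957 without those at 10 or more times the median.

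Members of both subunits were bound. A summit within 500 bp was found at 14 of 26 small-subunit genes (53.8%) and 18 of 47 large-subunit genes (38.3%). In the sets of each replicate alone the shares were 53.8% ± 5.44 and 40.4% ± 9.03 (SD, n = 2). The small subunit was higher in both, with 50% and 34.0% in replicate 1 and 57.7% and 46.8% in replicate 2. This difference was not tested. Genes numbered within the range of the bacterial ribosomal proteins (up to 36 for the large and 21 for the small subunit) had a summit at 20 of 42 (47.6%), and those with higher numbers at 12 of 31 (38.7%). The number is only a rough guide to descent, as mRpL47 shows. By chromosome arm the members were bound at 6 of 12 on 2L, 7 of 12 on 2R, 7 of 17 on 3L, 11 of 21 on 3R and 1 of 11 on the X. The X-linked one was mRpL16. Of all genes 23.5%, 23.7%, 25.5%, 24.9% and 24.7% had a summit on these arms, in the same order.

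Other genes of mitochondrial gene expression were examined by the same rules. The mitochondrial ribosomal protein genes tko and bonsai, which encode counterparts of bacterial S12 and S15 under other symbols, had no replicated summit, with ranked signals of 35.5 and 32.7 at tko and 12.9 and 26.8 at bonsai. None of 8 genes for mitochondrial translation factors had a summit within 500 bp. In the set of replicate 2 alone 3 did, namely mEFTu1, mEFG1 and mIF2, and in that of replicate 1 none. By nearest gene mEFTu1, the elongation factor that brings tRNAs to the ribosome, had a peak, with 30.9 and 70.9 at its TSS.

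Among 15 genes for mitochondrial aminoacyl-tRNA synthetases, which charge the tRNAs, 4 had a summit within 500 bp (26.7%), near the background of all genes. They were ProRS-m at 1.15 ± 0.37 times the median, ArgRS-m at 0.841 ± 0.12, CysRS-m at 0.628 ± 0.10 and AspRS-m at 0.582 ± 0.03 (SD, n = 2). SerRS-m was nearest to a summit farther away. In 16 genes that replicate, transcribe or process the mitochondrial genome 4 had one (25%). PNPase, which encodes an RNA-degrading exonuclease, had signals of 975 and 1748, or 14.7 ± 0.47 times the median, among the few genes at that level. mtSSB, for the single-stranded DNA-binding protein, had 217 and 783, mTerf5 had 35.4 and 95.9, and PolG2 had 41.4 and 58.7. TFAM, which packages the mitochondrial genome, was nearest to a summit beyond 500 bp, with 19.1 and 12.5 at its own TSS.

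The longer lists gave the comparison of strength. The strongest oxidative phosphorylation genes were ND-ASHI with 371 and 855, ND-MWFE with 257 and 357, ND-24 with 165 and 277, and COX5A with 154 and 231. None of the 87, and none of the 91 cytoplasmic ribosomal protein genes, reached 10 times the median at the TSS, whereas 4 of the 73 mitochondrial ones did (5.48%). The median at the TSS was higher for the cytoplasmic genes, at 1.46 and 1.34 times the median peak in replicates 1 and 2, than the 0.458 and 0.451 of the mitochondrial ones. Of these 3 lists the cytoplasmic genes thus had the highest median and share with a summit. Within these 3 lists, only the mitochondrial ribosomal protein genes had peaks at 10 or more times the median at the TSS, a level chosen after the values were seen. Among these peaks, that at mRpS23 lay nearer to CenG1A and that at mRpS10 almost midway to Art3.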

How the data were processed

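Per the labels, chromatin was sheared to 200 to 800 bp, and peaks are on assembly dm6. The authors deposited peak lists with, for each peak, a signal value whose scale is not stated and an irreproducible discovery rate (IDR) score, and all peaks of the thresholded sets score at least 830. The score measures how well a peak's rank repeats between 2 lists. Neither aligner nor caller is named in any source used here. Lists of each replicate were called on that replicate alone (3950 and 6850 thresholded peaks on the arms; 7 of replicate 1 lay elsewhere), and series-level lists on both pooled. The 16 unnamed columns of the series-level ranked lists were not used. The files hold no counts, so depth and its precision are unknown.

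Genes and TSS came from Ensembl release 115 and sequence from the RefSeq copy of the same assembly. Every transcript start counted. A summit equally near to several genes was given to each (106 peaks). A replicate's signal at a peak is that of its strongest overlapping ranked peak, and at a gene that of its strongest ranked peak within 500 bp. No test was run, because there is 1 group. Alternatives changed the peak set, the replicates, the gene models, the distances, the signal measure and the motif window. Assignment was tested on simulated data. Python 3.11.15, numpy 2.4.6, pandas 2.3.3 and scipy 1.17.1 were used.

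The members and lists were chosen with earlier results of these data known. The genes named are the 12 members with the strongest peak, the 5 weakest by nearest gene, the 3 with a summit within 500 bp whose replicates differ most in each direction, those with several peaks or only distant ones, all unbound members, every bound gene of lists of up to 20 genes and the strongest bound genes of longer lists. mRpL44, mRpL18 and the other genes named for their position, motif or missing peak were chosen after their values were seen.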

Additional observations from a re-analysis of the deposited data

Results flagged for a closer look

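mRpL47 drew attention because a signal appears in a list that the comparisons do not use. The pooled ranked list holds a peak at chr3R:9515896-9516056 with a score of 1000, above the threshold of 830, and a signal of 248.6, which is 1.41 times the median of the replicated peaks in the pooled call. Of the replicated peaks 1747 have a higher signal. The overlapping ranked peaks had 137 in replicate 1 and 106 in replicate 2. Its summit lies between genes, 72 bp from the TSS of mRpL47. It is 1 of 136 pooled peaks that pass the score and are absent from the replicated set, and the only one of them within 500 bp of a member.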

How the results depend on the processing

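The count of 19 members by nearest gene became 21 in the optimal set, 9 among the replicated peaks above the median signal, 20 with only the 5′ end of each gene as its TSS, 18 with all annotated genes, 18 with summits up to 1000 bp from the TSS and 18 with a tie given to the first gene alone (chosen after seeing the data). From either replicate alone it was 16 to 19. The count of 32 with a summit within 500 bp became 37 in the optimal set and 16 above the median signal, 27 within 250 bp and 33 within 1000 bp, and 29 to 37 from either replicate alone. In the optimal set that was 50.7% of members, beside 29.8% of all protein-coding genes. With a tie given to the first gene, 24.7% of all genes had a peak by nearest gene. Shares over all genes from either replicate alone are given above, and those for the other settings are not given here. The share of member peaks within 500 bp (95%) became 90.5% in the optimal set, 100% above the median signal, 86.4% with 5′ ends, 100% with all annotated genes and with summits up to 1000 bp, and 93.8% to 100% from either replicate alone.

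The median signal of 1.07 became 1.34 in the optimal set, 1.82 above the median signal, 0.976 with the pooled signal and 1.01 to 1.07 from either replicate alone. As a rank it was at the 50.4th percentile of all replicated peaks. With replicate peaks matched by the nearest summit within 100 bp it was 1.14, and without the members at 10 or more times the median it was 0.957 (both chosen after seeing the data). The share with the DREF site (20%) became 23.8% in the optimal set, 11.1% above the median signal, 5% in 100-bp windows, 30% in 400-bp windows and 21.1% to 25% from either replicate alone. The share of member peaks within 500 bp that lay at head-to-head promoters (78.9%) became 10.5% when the partner had to lie within 250 bp. It counts only peaks nearest to a member. Of the 10 members with a summit and a gap of up to 250 bp, most had the summit nearer to the partner. The same share over all peaks near a TSS is not given here. The share for members was 68.4% to 86.7% from either replicate alone.

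Of these alternatives 21 were marked as moving a value and 34 as not. The marks did not follow the spread between the replicates alone. The count by nearest gene without replicate 2, 16 in place of 19, was marked as not moved, where that spread was 2.12 (SD). The rank percentile, in another unit than the main value, was marked as moved. No paired analysis was possible because there is only 1 group. Depth is not given, so a member absent from the lists is not shown to be unbound.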
